A study of Rattus norvegicus with 3 samples.

Results

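Peaks of Seh1 in oligodendrocyte progenitor cells (OPC) that the deposited annotation places in an exon numbered 618, of 9084 annotated peaks in these cells. They were chosen by that annotation class alone, so the class, and the distances that define the classes next to it, are a description and not a finding. The exon number given beside each class assigned 134 of them to a first exon, 358 to an inner exon, 101 to a last exon and 25 to transcripts of a single exon. Chromatin immunoprecipitation followed by sequencing (ChIP-seq) was performed with an antibody to Seh1 on OPC from the forebrain of Sprague Dawley rats at postnatal day 1 to 2, grown with PDGF-AA, CNTF, bFGF and NT3. A second library came from immature oligodendrocytes (iOL), the same kind of culture after 1 day in 60 nM of the thyroid hormone T3 with PDGF-AA, bFGF and NT3 removed. Each stage had 1 Seh1 library, with no genetic change in either, and an IgG control was made in iOL only. The header of the annotated table names that IgG as the control for the OPC peaks. The OPC list held 9117 peaks, of which 33 had no annotation, and the iOL list held 6704 peaks without annotation or scores.

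With 1 library per stage there is no replicate error and no test between stages. Intervals below are exact binomial 95% intervals (Clopper-Pearson) that cover counting error only. The labels do not say how many animals were pooled, and no source used here gives the read depth. The label of the source is oligodendrocyte, and peak positions do not measure RNA, so the cell type could not be checked against its markers.

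Seh1 is a nucleoporin, a subunit of the Y-shaped scaffold complex of the nuclear pore, and it is also found in the GATOR complex that acts on nutrient signalling to mTORC1. Several nucleoporins contact chromatin, both at the pore and away from it. First exons adjoin the promoter and often lie within a CpG island, a stretch rich in the dinucleotide CG, whereas inner exons are mostly short coding segments spread among long introns.

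Promoter sequences next to 4 exon peaks show how different the starts of these genes are. They are RefSeq windows of assembly GRCr8, from 250 bases before to 50 bases after the start of the gene, read 5′ to 3′ on the strand of the gene, with every CG in capitals. Ppm1d (plus strand) and Lmna (minus strand) held 2 of the 3 strongest first-exon peaks, Klhl21 (plus strand) the first-exon peak nearest to a start, and Cldn20 (plus strand) the nearest peak in a single-exon transcript. All exon peaks were centred at least 101 bp away from the nearest start on the older build rn6, so these letters are the neighbouring promoter and not the peak itself.
Ppm1d: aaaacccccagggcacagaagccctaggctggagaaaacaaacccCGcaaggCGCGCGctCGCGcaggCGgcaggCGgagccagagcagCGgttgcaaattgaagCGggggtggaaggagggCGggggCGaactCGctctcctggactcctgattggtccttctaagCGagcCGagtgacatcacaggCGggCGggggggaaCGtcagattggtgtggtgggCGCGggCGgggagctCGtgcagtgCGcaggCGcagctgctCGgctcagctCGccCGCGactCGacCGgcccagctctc
Klhl21: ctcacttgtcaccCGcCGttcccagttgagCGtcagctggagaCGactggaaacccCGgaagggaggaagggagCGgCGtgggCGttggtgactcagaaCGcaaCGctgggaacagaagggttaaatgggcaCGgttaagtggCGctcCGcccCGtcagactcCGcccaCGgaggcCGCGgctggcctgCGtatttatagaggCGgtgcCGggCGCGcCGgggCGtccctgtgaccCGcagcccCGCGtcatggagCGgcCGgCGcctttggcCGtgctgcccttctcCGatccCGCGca
Lmna: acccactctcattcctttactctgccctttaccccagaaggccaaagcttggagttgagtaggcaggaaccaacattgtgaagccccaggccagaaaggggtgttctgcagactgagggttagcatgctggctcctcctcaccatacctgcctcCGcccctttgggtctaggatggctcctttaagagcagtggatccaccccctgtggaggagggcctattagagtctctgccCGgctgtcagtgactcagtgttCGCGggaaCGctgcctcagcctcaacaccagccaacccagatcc
Cldn20: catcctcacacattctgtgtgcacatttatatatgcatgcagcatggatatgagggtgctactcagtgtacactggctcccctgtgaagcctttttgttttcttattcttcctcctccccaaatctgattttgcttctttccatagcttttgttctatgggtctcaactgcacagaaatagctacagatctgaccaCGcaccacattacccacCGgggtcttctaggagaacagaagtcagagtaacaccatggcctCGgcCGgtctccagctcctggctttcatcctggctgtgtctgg
The windows of Ppm1d and Klhl21 hold 30 and 35 CG dinucleotides, those of Lmna and Cldn20 5 and 4. A strong peak in a first exon was therefore present both at a start rich in CG and at one poor in CG.

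Over all hosts with a RefSeq window, the starts of genes with a first-exon peak were rich in CG. Their median was 25 CG dinucleotides per window (quartiles 14 to 32, n = 113 genes), the same median as for genes with a peak in the promoter class (n = 279), against 16 over all 15165 genes with a window. At least 15 CG were present in 83.9% of promoter-peak genes (79.0 to 88.0%), in 73.5% of first-exon hosts (64.3 to 81.3%), in 63.4% of inner-exon hosts (57.3 to 69.2%, n = 265), in 59.5% of last-exon hosts (47.4 to 70.7%, n = 74) and in 53.7% of all genes. The 19 single-exon hosts had a median of 10, below that of all genes, with 47.4% at 15 or more (24.4 to 71.1%). The letters CAGCTG, an E-box that reads the same on both strands, were present in 17.7% of first-exon windows (11.2 to 26.0%), 21.1% of inner-exon windows (16.4 to 26.5%) and 15.9% of all windows, so that the share of all genes lay within the first interval and below the second. A match is a string of letters in a window outside the peak.

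**Figure D1:**
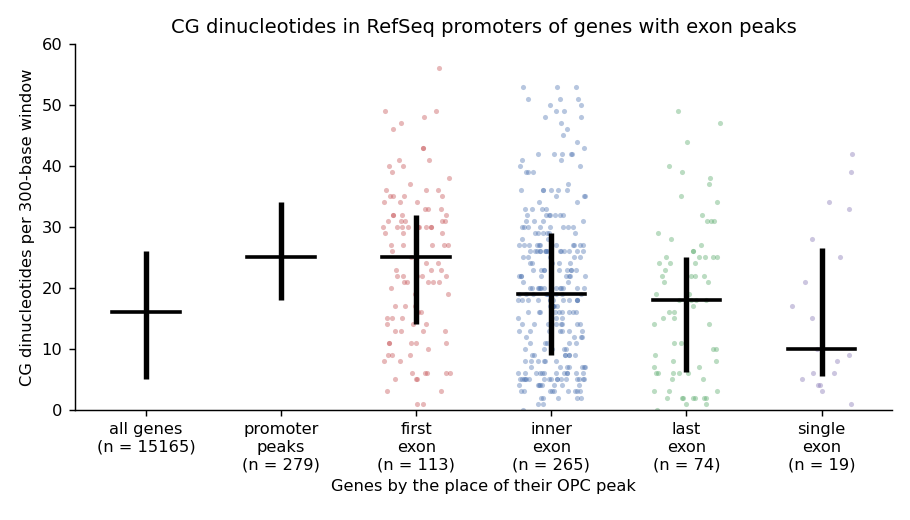
CG dinucleotides (vertical axis, count per 300-base RefSeq promoter window) for all genes, genes with an OPC peak in the promoter class, and genes with a peak in a first, inner, last or single exon (points are hosts of single peaks; horizontal bars are medians and thick lines quartiles over genes). The median of first-exon hosts, 25, equals that of promoter-peak genes and lies above the 16 of all genes, and that of single-exon hosts is 10.

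Exon peaks made up 6.80% of annotated OPC peaks (6.29 to 7.34%), beside 29.4% in introns, 56.7% between genes and 4.02% in the promoter class, which mostly reaches from 1 kb upstream to 100 bp downstream of a start. Inner exons held 57.9% of them (53.9 to 61.9%), first exons 21.7% (18.5 to 25.1%), last exons 16.3% (13.5 to 19.5%) and single-exon transcripts 4.05% (2.63 to 5.91%). The annotation puts peaks in 5' untranslated regions (UTRs, 64 peaks), 3' UTRs (76) and at transcription ends (127) in classes of their own. These shares leave such peaks out, so they depend on that class rule, above all for first and last exons. The host transcripts had a median of 10 exons (quartiles 5 to 19), with 15 for inner, 7 for first and 4 for last exons. Inner peaks were found along the whole transcript, with 94, 157 and 107 in its early, middle and late exons when the exon ranks were divided evenly. The highest exon number was 91 of 118, in Col7a1, which encodes the collagen of anchoring fibrils (score 7.02). Next came exons 78 and 52 in Sspo, encoding the secreted protein SCO-spondin, exon 52 of 66 in Cdh23, a cadherin of the inner ear, and exon 49 of 53 in Col17a1, a collagen of epithelial attachment, with scores from 7.02 to 8.3.

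The median distance to the nearest transcription start site (TSS) was 6.03 kb (95% interval of the median 4418 to 7529 bp), against 24.4 kb for intron peaks and 34.8 kb for all annotated peaks. It was 265 bp for first, 495 bp for single, 7.12 kb for last and 13.4 kb for inner exons. Within 1 kb downstream of a TSS lay 170 exon peaks (27.5%, 24.02 to 31.2%), of which 129 were in first, 21 in single, 17 in inner and 3 in last exons. Their distances ran from 101 to 994 bp with a median of 296 bp. The promoter class had 113 peaks on its downstream side, 84 of them within 100 bp and 29 up to 617 bp from the nearest TSS, since a peak is classed by a transcript that need not be the nearest. The boundary between both classes therefore falls within a run of peaks that continues from one to the other. Of all exon peaks 546 were downstream and 72 upstream of the nearest TSS, the upstream ones all in inner (58) or last (14) exons. The exon class thus held a group of 170 peaks at starts and 448 peaks in gene bodies, the latter with a median distance of 12.1 kb.

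**Figure D2:**
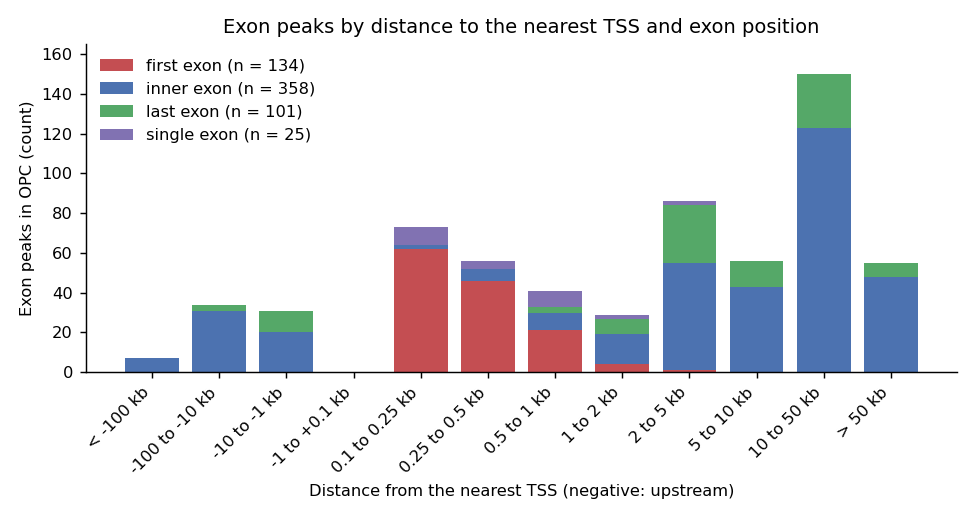
Number of exon peaks (vertical axis, count) by distance from the nearest TSS (horizontal axis, bins of unequal width, negative values upstream), stacked by the position of the exon. First exons fill the bins from 0.1 to 1 kb, inner and last exons those beyond 2 kb, and the bin from -1 to +0.1 kb is empty where peaks belong to the promoter class.

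The first-exon peaks nearest to a TSS were in Klhl21 at 101 bp (chr5:169181417-169181621), a substrate adaptor for a ubiquitin ligase, Nefl at 104 bp (chr15:44799380-44799584), the light neurofilament subunit, and Ung at 105 bp (chr12:48254593-48254797), the uracil-DNA glycosylase of base excision repair. Their scores were 7.66, 7.02 and 7.66, at or 1 step below the median of the class. Among inner exons the nearest were second exons of Jph4 at 198 bp, Sct at 204 bp and LOC691921 at 329 bp, encoding junctophilin 4, the hormone secretin and, for the last, a product the table does not describe. The nearest last-exon peaks were in Bola1 at 697 bp, Ddit4, a stress-induced inhibitor of mTORC1, at 806 bp, and Sox18, a transcription factor of endothelial cells, at 916 bp. In single-exon transcripts they were in the claudin gene Cldn20 at 102 bp, the olfactory receptor gene Olr1111 at 114 bp, and Olr1519 and Bloc1s4, both at 132 bp. None of the peaks named here for being nearest to a start reached a score of 10.

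The strength of a peak is given by the score of the authors' peak caller, which the header does not define and which moves in fixed steps such as 7.02, 7.66 and 8.3. Exon peaks had a median score of 7.66 (quartiles 7.02 to 8.3, range 5.75 to 23), equal to the median of all annotated OPC peaks and 1 step above the 7.02 of intron peaks. First, inner, last and single exons each had that median of 7.66. A score of 10 or more was reached by 45 exon peaks (7.28%, 5.36 to 9.62%), against 5.52% of all annotated OPC peaks, a value within the interval. By position these were 15 of 134 in first exons (11.2%, 6.40 to 17.8%), 20 of 358 in inner exons (5.59%, 3.45 to 8.50%), 7 of 101 in last exons (6.93%, 2.83 to 13.8%) and 3 of 25 in single exons (12%, 2.55 to 31.2%). The first-exon interval lies above the 5.52% of all annotated peaks, and those of the other positions hold it. The difference between positions was not tested. The focus ratio, a fraction given per peak beside the score, had a median of 0.762 in exon peaks and 0.778 in all annotated peaks. It was 0.737 in first exons and 0.765 in inner and last exons.

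**Figure D3:**
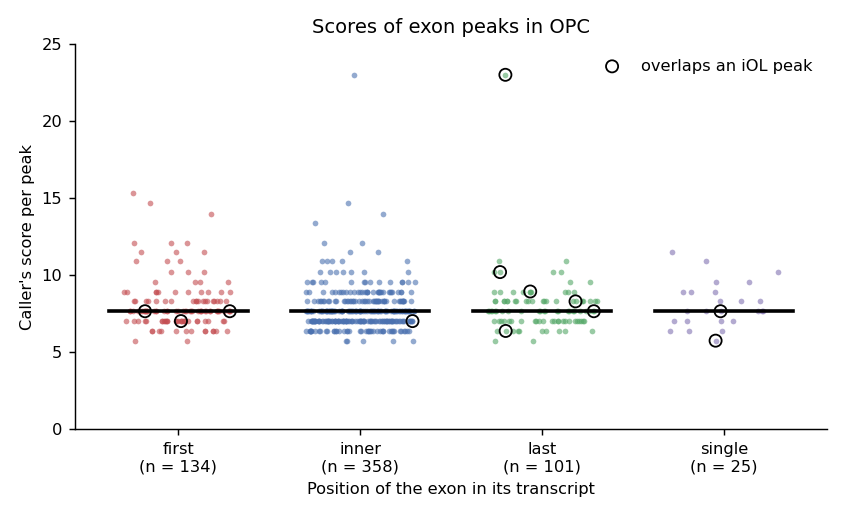
Score of the authors' peak caller (vertical axis, no unit) for every exon peak by the position of its exon, with horizontal bars at the medians and rings around peaks that overlap an iOL peak. All 4 medians are 7.66, a peak in an inner exon (Apc) and one in a last exon (Ubb) stand at 23, and 6 of the 12 rings are on last exons.

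The strongest exon peaks were in the last exon of Ubb and in exon 9 of 15 of Apc, both with a score of 23. Ubb (chr10:48881442-48881646) encodes polyubiquitin, and Apc (chr18:27084687-27084891) a scaffold of the complex that degrades beta-catenin. The annotation places the Ubb peak in exon 17 of 17, only 1313 bp from the TSS. That exon count is printed as the annotation has it and was not checked. In first exons the strongest were Vim (15.3, chr17:80883066-80883270, 453 bp from its TSS), the intermediate filament vimentin, Lmna (14.7, chr2:187863087-187863291, 363 bp), the nuclear lamins A and C, and Ppm1d (14, chr10:72909971-72910175, 523 bp), a phosphatase that turns off p53 signalling. Inner exons followed, among others, with exon 8 of 19 of Rad54l (14.7, chr5:134960787-134960991), a motor protein of homologous recombination, and exon 30 of 61 of Nf1 (13.4, chr10:66792382-66792586), neurofibromin, which switches off Ras. Exon 3 of 4 of Cdkn1c (12.1, chr1:216661764-216661968), an imprinted inhibitor of cyclin-dependent kinases, and exon 1 of Tesmin (12.1, chr1:218632821-218633025) were also among the first 10, tied at 12.1 with Gata5, Stk11 and RT1-N3 and placed before them by chromosome and start. The next last-exon peaks after Ubb were in Chrna7, a nicotinic acetylcholine receptor subunit, and Stk32b, a kinase, both at 10.9. The strongest in single-exon transcripts were in Cebpa (11.5, 678 bp from its TSS), a transcription factor of adipocytes and myeloid cells, the histone H4 gene Hist1h4m (10.9) and Kbtbd11 (10.2). The 10 strongest thus lay at a start in some genes and far inside the transcript in others, with only Ubb among them overlapping an iOL peak.

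Exon peaks fell in 580 host genes, from 614 peaks whose transcript could be matched to a gene name, and 24 of these genes held 2 or more (58 peaks in all). Another OPC peak lay within 10 kb of 111 exon peaks (18.0%, 15.01 to 21.2%), against 11.7% of all annotated OPC peaks and 13.2% of intron peaks, and 20.9% of inner-exon peaks (16.9 to 25.5%) had such a neighbour. The other positions had 14.9% (first, 9.36 to 22.1%), 12.9% (last, 7.04 to 21.0%) and 12% (single, 2.55 to 31.2%), with intervals that hold the value of the whole list, and peaks in 3' UTRs had 21.1% (12.5 to 31.9%). The share over the whole list thus lay below the interval of inner exons, and close neighbours were not particular to exons. The 4 genes with 3 or more included Nf1 with 8 and Lmna and Ssc5d with 3 each.

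The 8 peaks of Nf1 lay in exons 20, 22, 25, 26, 30, 35, 40 and 42 of 61, with scores in that order of 8.94, 8.3, 10.9, 8.3, 13.4, 10.2, 10.2 and 8.3. Every one was above the median of all exon peaks, and they spanned 113 kb (chr10:66781468-66894857). All 8 OPC peaks within this span were in exons and 0 in introns. The deposited files hold no reads, and whether the DNA under these peaks came from the Seh1 immunoprecipitation or from another library, such as one enriched for exons, was not tested. Lmna had peaks in exons 1, 7 and 11 of 12, with scores of 14.7, 11.5 and 10.2. Those of Ssc5d, a scavenger receptor family member, were in exons 7, 10 and 14 of 14, with 7.02, 10.9 and 8.3. In Lmna and Ssc5d too, every OPC peak between the outermost exon peaks was in an exon (3 of 3 in each). None of the exon peaks in these genes or in Nf1 overlapped an iOL peak. As only 1.73% of all annotated OPC peaks did, this does not set these genes apart.

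**Figure D4:**
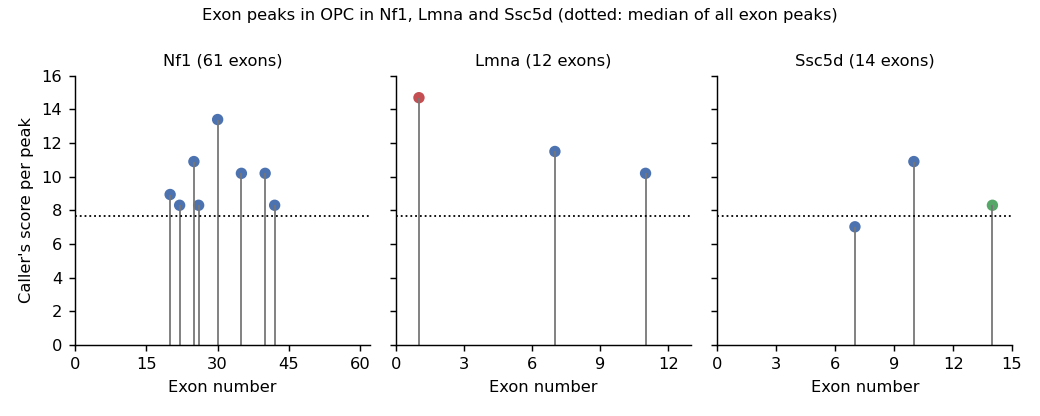
Score of the authors' peak caller (vertical axis, no unit) against exon number (horizontal axis) for Nf1, Lmna and Ssc5d, coloured red for a first, blue for an inner and green for a last exon, with the dotted line at the median of all exon peaks, 7.66. The 8 peaks of Nf1 lie between exons 20 and 42 and all above the line, as do the 3 of Lmna, and 1 of the 3 of Ssc5d lies below it.

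Tumour suppressor and DNA repair genes recurred among these hosts. A list of such genes was therefore drawn up after the strongest peaks had been seen, so its counts are a description of the deposited peak list, and the limit on the source of the DNA given for Nf1 holds for them too. It held 58 genes of the reference, and 17 of them had an exon peak (29.3%, 18.1 to 42.7%), against 3.12% of 18539 protein-coding genes. Among them were Apc, Atm, Cdkn2a, Chek2, Ctnna1, Men1, Mlh3, Mre11a, Nf1, Rad51c, Rad54l, Ret, Smarca4, Stk11 and Tsc2. Their 28 peaks comprised 25 in inner exons, 3 in first exons and 0 in last exons. The first-exon peaks were in Cdkn2a, which encodes inhibitors of the cell cycle (123 bp from its TSS, score 6.38), Men1, encoding menin (460 bp, 8.3), and Stk11, a kinase upstream of AMPK (994 bp, 12.1). Among the inner ones, exon 12 of 15 of the checkpoint kinase gene Chek2 had a score of 10.9, exon 15 of 42 of Tsc2, a brake on mTORC1, 9.58, and exon 10 of 63 of Atm, a kinase of the DNA damage response, 7.66. The median score was 8.3, and 9 of the 28 reached 10 (32.1%, 15.9 to 52.4%), against 6.10% of the other 590 exon peaks (4.31 to 8.35%), whose median was 7.66. None of the 28 overlapped an iOL peak (0%, interval up to 12.3%). The 1.73% of all annotated OPC peaks lies within that interval, so this does not set the list apart.

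Exon and intron peaks can both be named by the transcript that holds them, and so counted 4.53% of exon peaks (3.03 to 6.48%) and 0.411% of intron peaks (0.206 to 0.735%) lay in these genes. Named by the nearest TSS, the shares were 2.91% of exon peaks (1.74 to 4.56%), 0.486% of intron peaks (0.259 to 0.830%), 0.548% of promoter peaks (0.0664 to 1.97%) and 0.310% of intergenic peaks (0.178 to 0.504%). The smaller classes had 1.56% in 5' UTRs (0.0396 to 8.40%), 0.787% at transcription ends (0.0199 to 4.31%) and 0% in 3' UTRs (interval up to 4.74%), with intervals that overlap that of exons. As the list was drawn up from strong exon peaks, these shares do not bear on exons in general. Peaks with a list gene as the nearest included one in an intron assigned to Epcam (score 20.4) and others in a 5' UTR and an intron assigned to Pms2 (16 and 12.1).

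Overlap with an iOL peak by at least 1 bp was found for 12 exon peaks (1.94%, 1.01 to 3.37%), against 1.73% of all annotated OPC peaks, so exons did not stand apart from the list at these counts. By position, 6 of 101 last-exon peaks were shared (5.94%, 2.21 to 12.5%), against 1 of 358 inner-exon peaks (0.279%, 0.00707 to 1.55%), 3 of 134 first-exon peaks (2.24%, 0.464 to 6.40%) and 2 of 25 single-exon peaks (8.0%, 0.984 to 26.0%). The intervals of last and inner exons do not overlap. The 6 in last exons included those in Ubb (score 23, overlap of 163 bp), Tmsb4x (6.38, 173 bp), the actin-binding thymosin beta 4, Apoe (8.94, 86 bp), the lipid carrier apolipoprotein E, Hp (7.66, 116 bp), haptoglobin, and Necap2 (10.2, 77 bp), an endocytosis factor. In first exons they were in Twist2 (7.66, 190 bp), a basic helix-loop-helix factor, Tmed2 (7.66, 130 bp), a cargo receptor of the early secretory pathway, and Ankrd13d (7.02, 49 bp). The others were in the single exons of Olr1198, an olfactory receptor gene (7.66, 189 bp), and Hist2h2aa3, a histone H2A gene (5.75, 162 bp), and in exon 8 of 16 of Rgl3, a Ral guanine exchange factor (7.02, 62 bp).

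Only 2 of the 12, Ubb and Necap2, had a score of 10 or more. The ubiquitin, histone, thymosin and olfactory receptor genes among them have close copies elsewhere in the genome, and no source used here says how reads with several matches were placed, so these positions are uncertain.

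The gene that holds the exon was not always the gene with the nearest TSS, which is the name the annotation reports. They differed for 129 of 614 matched peaks (21.0%): 111 in inner, 17 in last, 1 in single and 0 in first exons. Such hosts had a median of 17 exons, against 8 where both names were the same. Of the 8 Nf1 peaks 6 were assigned to Omg, which encodes the oligodendrocyte myelin glycoprotein and starts within an Nf1 intron. Read by nearest start, these 6 would count as peaks of a myelin gene. The other 2 were assigned to Evi2a, another gene in that intron. The Apc peak was assigned to Srp19, 30.0 kb away. A peak in the last exon of Dagla was assigned to Myrf, the transcription factor that drives myelin genes, whose TSS was 6.91 kb away, and exon peaks of Letm1 and Ank3 were assigned to the growth factor receptor gene Fgfr3 and the cell cycle kinase gene Cdk1. Counts of genes with an exon peak in this text use the host of the exon, whereas peaks of the other classes are given by the nearest TSS unless stated.

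Among gene lists for the tissue, the myelin and oligodendrocyte list had 3 of 39 (7.69%, 1.62 to 20.9%): the first exon of Nkx6-2, a homeobox factor of oligodendrocytes (8.3, 495 bp from its TSS), exon 4 of 7 of Hapln2, a link protein of the node of Ranvier (10.2), and exon 6 of 7 of Qdpr, which recycles tetrahydrobiopterin (7.02). Of the OPC list 2 of 35 had one (5.71%, 0.700 to 19.2%), the first exon of the Notch ligand gene Jag1 (8.94) and the last exon of Sox9 (7.02). Both shares have intervals that hold the 3.12% of all protein-coding genes. The lists differ in gene length and exon content, for which no adjustment was made, so shares are read beside that value only as counts.

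Genes of astrocytes, neurons and the cytoskeleton had larger shares. The astrocyte list had 5 of 22 (22.7%, 7.82 to 45.4%): Vim with peaks in exon 1 (15.3) and exon 4 of 9 (8.3), Apoe (8.94), Sox9 (7.02), the water channel gene Aqp4 (7.02) and the glutamine synthetase gene Glul (7.02). Neuronal genes numbered 5 of 28 (17.9%, 6.06 to 36.9%), with first-exon peaks in the neurofilament genes Nefl (7.02) and Nefh (7.66), an inner-exon peak in Slc32a1, the vesicular GABA transporter (8.3), and peaks in Tbr1 and in Grin1, an NMDA receptor subunit. The cytoskeleton list had 9 of 38 (23.7%, 11.4 to 40.2%): Vim and Plec, which encodes the linker plectin, with 2 peaks each, Actb, Tmsb4x, Tubb6, Sptan1, Kif5b, Dync1h1 and Ank3. Of their 11 peaks 7 were in inner exons, and Vim is on the astrocyte list too. Microglial and vascular lists had 1 of 22 each (4.55%, 0.115 to 22.8%), Csf1r and Myh11, both with a score of 6.38. Exon peaks in glial and neuronal marker genes say nothing of which cells were in the culture, since no RNA was measured.

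Signalling, metabolic and housekeeping lists followed. The Wnt, Notch and BMP list had 5 of 51 (9.80%, 3.26 to 21.4%): Jag1, the BMP antagonist gene Chrd (7.02), Notch3 (8.94), Smad1 (6.38) and Apc. Sterol and lipid genes had 3 of 30, among them Apoe and Fasn, fatty acid synthase (8.94). Cell cycle genes had 3 of 33, Cdkn2a, E2f3 (7.02) and Cdkn1c. The ribosome and translation list had 3 of 36, among them Rpl11 in its first exon (7.66) and Ubb. Of the nucleoporin genes, among which Seh1 itself belongs, 1 of 29 had an exon peak (3.45%, 0.0873 to 17.8%), near the 3.12% of all protein-coding genes. It was in the last of 2 exons of Nup62, a protein of the central channel, at 10.2 (chr1:100825570-100825774). The chromatin list had 2 of 39, Smarca4 (7.66) and Bcl11a (8.3). The interval of the Wnt, Notch and BMP list lies just above that 3.12%, and those of the other lists in this paragraph hold it.

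Transcription factor families and large gene families are given with the position of the exon, which gene structure limits where transcripts have a single exon. Homeobox and T-box genes had 11 of 139 (7.91%, 4.02 to 13.7%), 6 of them in first exons (Tbx21, Tbx19, Irx2, Tbx18, Nkx6-2 and Hoxc4), with scores from 6.38 to 8.94. Kinesin, dynein and myosin genes had 8 of 93 (8.60%, 3.79 to 16.2%), all in inner exons, the strongest in exon 35 of 38 of the cardiac myosin gene Myh6 (11.5) and exon 8 of 18 of Kifc3 (10.2). Protocadherin genes had 4 of 48 (8.33%, 2.33 to 20.0%), in first exons of the gamma cluster (Pcdhga1 at 11.5, Pcdhga8 at 8.94, Pcdhga9 and Pcdhga5 at 7.66), where each gene brings its own first exon. Pcdha2 of the alpha cluster, which the reference does not list as a gene of its own and these counts therefore leave out, also had a first-exon peak (7.02). Histone genes had 4 of 63, 3 of them of a single exon, and olfactory receptor genes 4 of 151 (2.65%, 0.726 to 6.64%), all of a single exon. Zinc finger genes had 15 of 308 (4.87%, 2.75 to 7.91%), 8 in inner and 5 in last exons, and Sox, Fox and Klf genes 4 of 76. Solute carrier genes had 10 of 365 (2.74%, 1.32 to 4.98%), and potassium channel genes 4 of 93. Collagen and laminin genes had 2 of 49 and keratin genes 2 of 86. A list of G protein-coupled receptor genes with symbols such as Gpr and Adgr, not the whole family, had 5 of 124. The intervals of the homeobox and kinesin lists lie above the 3.12% of all protein-coding genes. Those of the other lists named so far in this paragraph hold it. No exon peak was found in 139 vomeronasal receptor genes (0%, interval up to 2.62%) or in 22 genes of mucins and titin-like giants (0%, interval up to 15.4%).

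**Figure D5:**
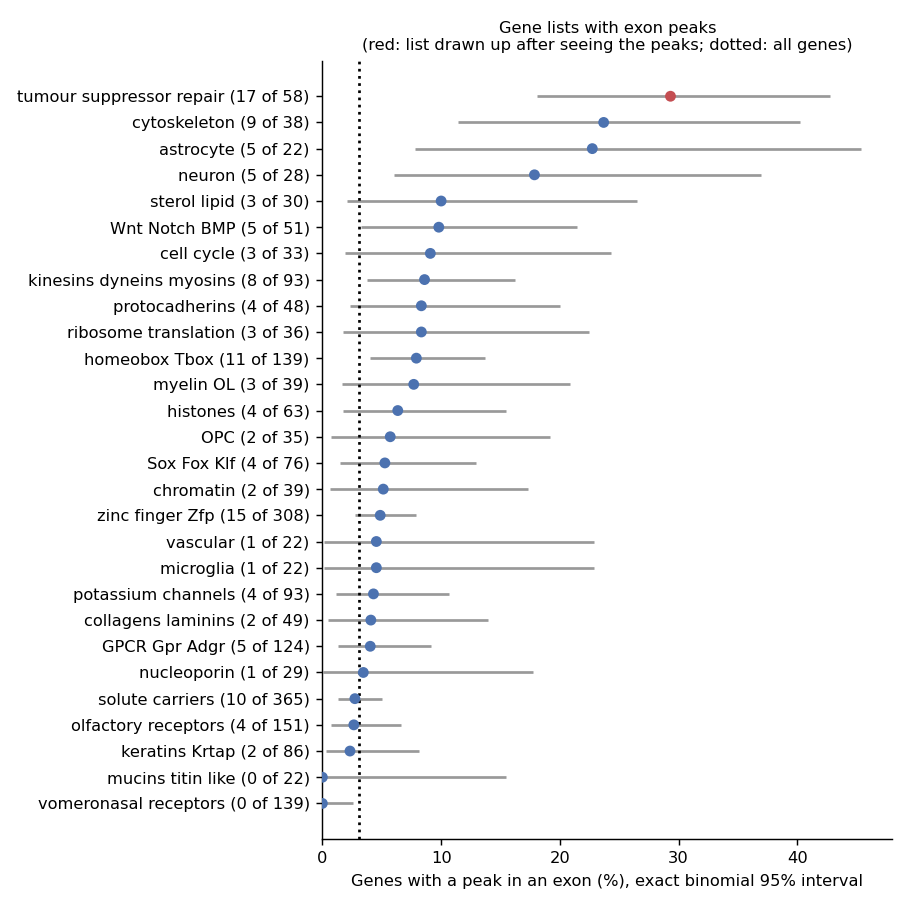
Share of the genes of each list with an exon peak (horizontal axis, percent; points with exact binomial 95% intervals; counts beside the names), with the dotted line at 3.12% of all protein-coding genes. The intervals of the cytoskeleton, astrocyte, neuron, Wnt, kinesin and homeobox lists lie above the line, those of the myelin and OPC lists include it, and the red point is the tumour suppressor and repair list drawn up after the peaks were seen.

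By chromosome the exon share of annotated OPC peaks ran from 3.72% on chromosome 11 (9 of 242, 1.71 to 6.94%) to 9.43% on chromosome 10 (61 of 647, 7.29 to 11.9%), with 9.29% on chromosome 1 (92 of 990, 7.56 to 11.3%). Chromosome 10 holds the 8 Nf1 peaks. Chromosome X had 6 exon peaks of 127 (4.72%), among them Tmsb4x. The interval of chromosome 1 lies above the 6.80% of the whole list, and so does that of chromosome 10.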

How the data were processed

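Seh1 ChIP-seq was made from 1 library of rat OPC and 1 of iOL, from cells fixed with 1% formaldehyde, per the labels' protocols. Bowtie2 and HOMER, with builds rn6 and hg18, are named without versions in the submitters' processing notes. How duplicates and reads with several matches were treated, and the limits for calling peaks, are not given in the sources used. The authors deposited a list of peak positions per library and 1 annotated table, which is recorded under iOL. All 9084 of its intervals equal OPC intervals and 0 equal iOL intervals, so it served as the annotation of OPC. Per the file headers it came from HOMER annotation on rn6. The deposited table gives a score per peak, with no definition, and a focus ratio, which is a fraction. OPC intervals are 205 bp wide and iOL intervals 209 bp.

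Exon number and transcript were read from the table's main annotation column, not the detailed one. Host genes were matched through the RefSeq gene table of GRCr8, used for names and promoter windows only. Shared means overlapping by at least 1 bp. Medians, counts and exact binomial 95% intervals were computed with Python 3.11.15, pandas 2.3.3, NumPy 2.4.6 and SciPy 1.17.1. The overlap routine was tested on simulated data. No p-value was computed, as each stage has 1 library, and the IgG library was not analysed here. Named are the 10 strongest exon peaks, all that overlap an iOL peak, genes with 3 or more, per exon position the 3 strongest and the 3 nearest to a TSS, the 5 highest exon numbers, and genes of 27 lists. Peaks named for their assignment to another gene (Dagla, Letm1, Ank3) were chosen after their values were seen. Some genes that this rule names are not reported here, though all counts include them. The exon peaks and the lists were chosen with earlier results of these data known, and the tumour suppressor and repair list was drawn up after the strongest peaks had been seen. Alternatives tried were other score limits, class definitions, overlaps and ways of naming genes.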

Additional observations from a re-analysis of the deposited data

How the results depend on the processing

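No paired analysis was possible because each stage has 1 library. Of 29 alternatives for 9 values, 17 kept the value within its counting error or within 1.5 times its count. The exon share, 6.80%, was 8.06% among peaks scoring at least the list median, 8.98% among those scoring 10 or more and 8.34% with both UTR classes. It was 4.93% when the promoter class was extended to 1 kb downstream, an alternative chosen, like the leaving out of the tumour suppressor and repair list, after seeing the data. The first-exon share was 25.7% with single-exon transcripts counted as first and 1.12% beyond 1000 bp of a TSS. The last-exon share was 20.4% with single-exon transcripts counted as last. The mean score was 7.91. Sharing with iOL was 4.44% at scores of 10 or more. The median distance was 3425 bp when limited to exon peaks whose own transcript has the nearest TSS. That subset leaves out peaks assigned to another gene, so 3425 bp is not a distance for all exon peaks. Without peaks within 1000 bp of a TSS the median was 12055 bp. Genes with an exon peak numbered 586 by nearest TSS and 362 at scores of at least the median. Genes with 2 or more exon peaks were 24, and 20 without the tumour suppressor and repair list. Depth per library is unknown, the OPC peaks have no IgG of their own stage, and a peak missing from 1 list may be below that library's threshold, so low sharing does not measure a change between stages.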
